A study of Drosophila melanogaster with 3 samples.

Results

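The proteasome subunit genes of Drosophila melanogaster were examined for GAGA factor at their promoters. They were taken as the protein-coding genes on the 6 chromosome arms whose Ensembl symbol begins with Rpn, Rpt, Prosalpha or Prosbeta, which gave 48 genes of 13945. Of these, 32 encode the subunits used throughout the body (called ubiquitous here), and 16 are paralogues whose symbols end in T or R, with or without a digit, called testis-type here by that symbol alone. The rule used symbols only and no measured value, but the set was chosen with earlier results of these data known.

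The proteasome is the protease that degrades proteins tagged with ubiquitin. Its core particle is a barrel of beta rings (Prosbeta genes), which hold the protease sites, capped by alpha rings (Prosalpha genes), which gate the entry. The regulatory particle at its ends contains a ring of ATPases (Rpt genes) that unfold the substrate, and non-ATPase subunits (Rpn genes) that hold the assembly, bind ubiquitin chains and remove them. Cells need the subunits in matched amounts, and Drosophila has duplicated copies of many of them, several of which are known for expression in the male germline. GAGA factor is encoded by Trithorax-like (Trl). Its zinc finger recognises GA repeats, it sits at many fly promoters, and it is known for keeping chromatin open there.

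The 3 biological replicates form 1 group, so no condition was compared with another. All of them are whole embryos of both sexes, collected between 0 and 24 h of development, of the strain Trl-MiMIC-GFP, in which an eGFP exon placed in an intron of Trl makes a tagged Trl-GFP protein. An antibody against GFP recovered the DNA (chromatin immunoprecipitation with sequencing, ChIP-seq). Every tissue and stage of embryogenesis is mixed in each sample, so a site used in few cells and a site used weakly in many cannot be told apart, and adult testis is not part of the material.

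The authors' thresholded set, called the optimal list here, held 4900 peaks. It was filtered by IDR (irreproducible discovery rate, which keeps peaks that rank alike in replicates) and was identical to the strongest 4900 of 30000 pooled peaks. Each replicate also had its own list of 30000 peaks. The pooled and replicate lists include background calls. Peak signal is the authors' own value of unstated scale, so it was used only as a rank within a list, rank 1 being the strongest. Read depth is unknown. A gene was called bound when an optimal summit, the highest point of a peak, lay within 500 bp of one of the gene's start sites. Below, "pooled rank" is the rank of the strongest pooled summit in that window, and "percentile" is the rank in a replicate list expressed from 0 (no summit) to 100 (strongest).

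Of the ubiquitous subunit genes, 10 of 32 were bound (31.25%, exact 95% binomial interval 16.1% to 50.01%), against none of the 16 testis-type paralogues (upper limit 20.6%) and 3193 of 13945 protein-coding genes, or 22.9%. The interval of the ubiquitous genes includes the share over all genes. The intervals cover counting error only, and neighbouring genes can share 1 peak. In the top 4900 peaks of replicates 1, 2 and 3 alone, 12, 11 and 12 ubiquitous genes had a summit, a share of 36.5% ± 1.80 (SD, n = 3), while the testis-type paralogues had none in any replicate and all protein-coding genes had 22.6% ± 0.0908. The ubiquitous share exceeded the testis-type share by 37.5, 34.4 and 37.5 percentage points in the 3 replicates. With 3 replicates an exact sign-flip test cannot give a p below 0.25, so no test was made.

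The larger contrast lay below the threshold. A pooled summit was present at 28 of 32 ubiquitous genes (87.5%), at 2 of 16 testis-type paralogues (12.5%) and at 54.4% of all protein-coding genes. Of the ubiquitous genes, 13 (40.6%) had their strongest summit between pooled ranks 4901 and 10000, against none of the testis-type paralogues and 13.0% of all protein-coding genes. The limit of 10000 was set after the ranks had been seen. A summit in all 3 full replicate lists was present at 25 ubiquitous genes (78.1%), at no testis-type paralogue and at 40.2% of all protein-coding genes. The median percentile of the ubiquitous genes was 73.5, that of the testis-type paralogues 0 and that of all protein-coding genes 23.4, each gene taken as its mean over the 3 replicates. With a window of 100 bp the medians were 41.3, 0 and 0. By replicate, the median of the ubiquitous genes was 74.1, 77.7 and 79.7, against 21.7, 19.0 and 11.96 for all protein-coding genes.

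**Figure D1:**
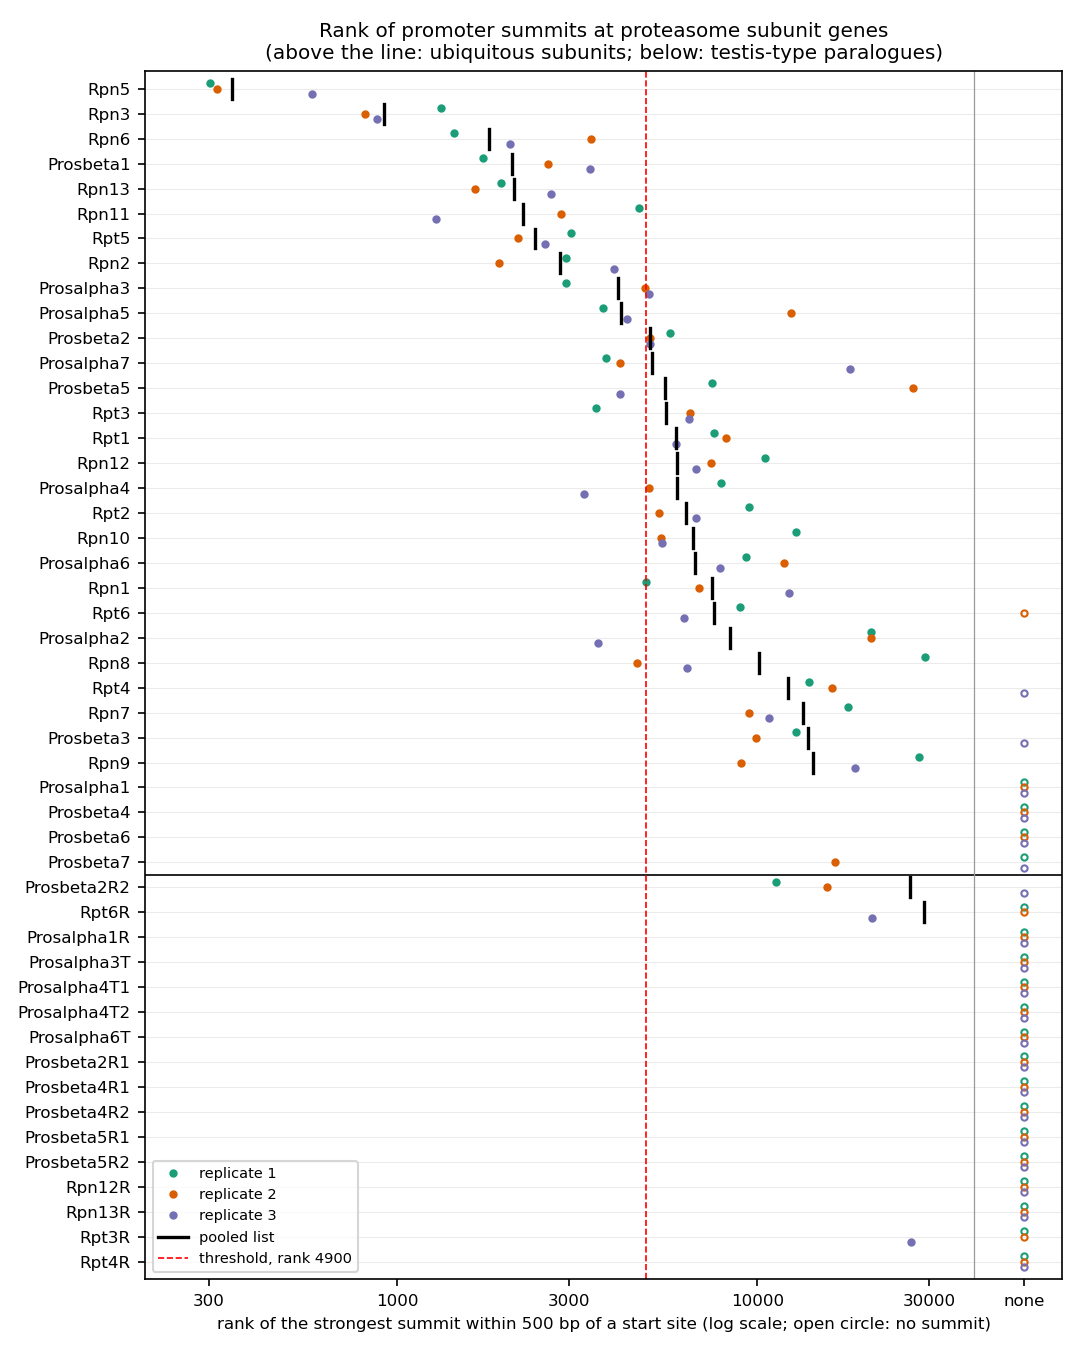
Rank of the strongest summit within 500 bp of a start site for each of the 48 genes, on a logarithmic axis, in the 3 replicate lists (dots), and in the pooled list (black bars), with open circles where a replicate had no summit. The dashed line is rank 4900: the bars of 10 ubiquitous genes lie left of it, 18 lie right of it, and the testis-type paralogues below the horizontal line have 2 bars, at ranks 26530 and 28901.

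**Figure D2:**
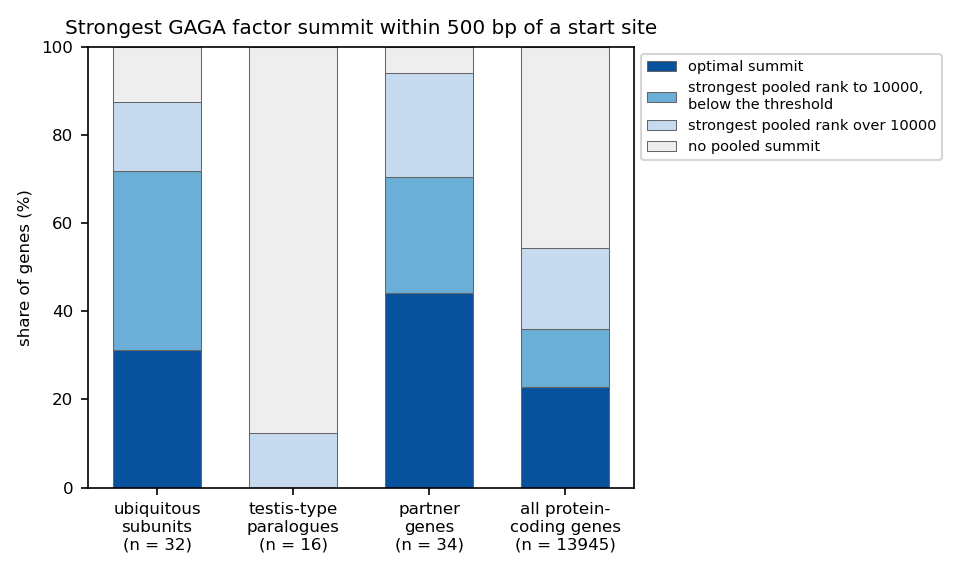
Share of genes (%) by the rank of the strongest summit within 500 bp of a start site, for ubiquitous subunits, testis-type paralogues, 34 partner genes of the ubiquitin pathway and all protein-coding genes. The band from rank 4901 to 10000 holds 40.6% of the ubiquitous subunits and 13.0% of all protein-coding genes, and 87.5% of the testis-type paralogues have no pooled summit.

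The reference sequence is shown where the contrast between the genes can be read. The first 4 windows span 100 bp to either side of the pooled summit at bound genes: the strongest (Rpn5, chr3R:5789187-5789387), a pair with the octamer TATCGATA (Rpn3, chr2L:19051730-19051930, and Rpt5, chr3R:23752731-23752931), and a bound gene whose nearest other start site is over 1000 bp away (Rpn11, chr2L:5059781-5059981). Prosbeta2 (chr3L:14999579-14999779) is the gene nearest below the threshold, and its paralogues follow as Prosbeta2R2 (summit window, chr3R:5219739-5219939) and Prosbeta2R1 (no summit, 100 bp to either side of its start site, chrX:5808854-5809054). All are on dm6 and written 5′ to 3′ on the strand of the gene, which is the minus strand for Rpn11 and Prosbeta2R2 and the plus strand for the others. Capitals mark GAGAG on either strand, the core of the sequence that GAGA factor binds, and TATCGATA, the DNA replication-related element (DRE) bound by the factor DREF.
Rpn5: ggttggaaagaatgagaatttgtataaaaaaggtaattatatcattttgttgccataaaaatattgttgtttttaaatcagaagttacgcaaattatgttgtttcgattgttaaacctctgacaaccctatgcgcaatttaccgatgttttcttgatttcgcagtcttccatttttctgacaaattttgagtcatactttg
Rpn3: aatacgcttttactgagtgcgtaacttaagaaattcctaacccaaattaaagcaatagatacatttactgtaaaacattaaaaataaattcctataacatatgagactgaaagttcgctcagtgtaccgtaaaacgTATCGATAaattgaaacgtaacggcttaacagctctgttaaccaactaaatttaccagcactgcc
Rpt5: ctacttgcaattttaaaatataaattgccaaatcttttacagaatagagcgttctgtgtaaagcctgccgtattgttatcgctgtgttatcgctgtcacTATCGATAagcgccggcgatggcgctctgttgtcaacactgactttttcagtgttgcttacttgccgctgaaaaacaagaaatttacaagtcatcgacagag
Rpn11: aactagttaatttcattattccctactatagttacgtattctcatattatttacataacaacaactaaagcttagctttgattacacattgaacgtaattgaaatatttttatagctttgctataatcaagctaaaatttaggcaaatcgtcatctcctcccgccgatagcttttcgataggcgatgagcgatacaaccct
Prosbeta2: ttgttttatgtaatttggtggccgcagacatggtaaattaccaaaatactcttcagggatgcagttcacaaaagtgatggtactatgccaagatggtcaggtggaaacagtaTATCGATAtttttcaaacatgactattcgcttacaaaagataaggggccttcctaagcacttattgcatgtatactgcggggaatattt
Prosbeta2R2: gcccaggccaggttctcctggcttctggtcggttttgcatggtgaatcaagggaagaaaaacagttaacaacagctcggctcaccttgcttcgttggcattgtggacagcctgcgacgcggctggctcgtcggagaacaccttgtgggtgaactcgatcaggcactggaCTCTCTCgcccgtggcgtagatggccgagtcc
Prosbeta2R1: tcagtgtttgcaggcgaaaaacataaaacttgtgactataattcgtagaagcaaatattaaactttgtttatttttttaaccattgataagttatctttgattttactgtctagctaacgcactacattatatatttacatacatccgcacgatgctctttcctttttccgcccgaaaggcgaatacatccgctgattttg
None of the 5 windows at ubiquitous genes holds GAGAG, and 3 of them hold TATCGATA, at base 137 (Rpn3), 100 (Rpt5) and 113 (Prosbeta2) of the window. Rpn3 and Rpt5 were picked for that octamer, and Rpn13, a bound gene with GAGAG at its strongest summit, is not shown. These counts therefore describe the printed windows only. The run of capitals in Prosbeta2R2 starts at base 170 and holds 2 overlapping matches to GAGAG, read on the opposite strand.

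The lid of the regulatory particle supplied the strongest member. Rpn5 (FBgn0028690, peak chr3R:5789082-5789491 on dm6), a scaffold subunit of the lid, had pooled rank 349 and ranked 303, 317 and 582 in replicates 1, 2 and 3, a mean percentile of 98.7 ± 0.524 (SD, n = 3). This summit lay 206 bp upstream of the start site, in annotated intron sequence, and 97 bp from the start site of Hat1, a histone acetyltransferase gene on the other strand. A second optimal summit, at rank 2551 (peak chr3R:5789392-5789503), lay 6 bp upstream of the Rpn5 start site itself. Rpn3 (FBgn0261396, peak chr2L:19051773-19051881 on dm6), another lid scaffold, had pooled rank 922 with ranks 1326, 814 and 878. Its summit lay 40 bp downstream of a start site, within the 5′ UTR, and the replicate summits fell within 2 bp of each other. The best 2 members were thus placed alike by all replicates, well inside the optimal list.

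Rpn6 (FBgn0028689, peak chr2R:14752204-14752613 on dm6), the lid subunit that clamps the lid to the core, had pooled rank 1798 and ranks 1440, 3441 and 2057. Its summit was 138 bp upstream and nearer to the start site of ave. Rpn11 (FBgn0028694, peak chr2L:5059676-5060085 on dm6), the metalloprotease that cuts ubiquitin chains off the substrate, had pooled rank 2230 and ranks 4693, 2848 and 1280, and its summit 91 bp upstream had no other start site within 1000 bp of the gene's own. All 3 replicates placed both genes inside their top 4900, though the order within them varied. The remaining lid genes lay below the threshold: Rpn12 at pooled rank 5982, Rpn8 at 10086, Rpn7 at 13348 and Rpn9 at 14299. Rpn8 is the inactive partner of Rpn11 in the lid, and its percentile varied most of all members, with ranks 29176, 4632 and 6367. These ranks belong to different peaks: the strongest replicate summits lay at 403, -441 and -275 bp from its nearest start site (negative upstream).

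Among the other Rpn genes, Rpn13 and Rpn2 were bound. Rpn13 (FBgn0033886, peak chr2R:13960239-13960648 on dm6), a ubiquitin receptor, had pooled rank 2108 and ranks 1947, 1643 and 2674. Rpn2 (FBgn0028692, peak chr3R:29153162-29153571 on dm6), the scaffold on which Rpn13 sits, had pooled rank 2826 and ranks 2942, 1917 and 3993. Rpn13 had its strongest summit 40 bp upstream, nearest to its own start site, and a second optimal summit at rank 4737, 250 bp upstream. Rpn2 had its summit 157 bp upstream and 101 bp from the start site of Slbp, a histone mRNA binding protein gene. The scaffold Rpn1 and the receptor Rpn10 were below the threshold, at pooled ranks 7490 and 6606.

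Of the 6 ATPase genes, Rpt5 (FBgn0028684, peak chr3R:23752626-23753035 on dm6) was bound. It had pooled rank 2415 and ranks 3028, 2162 and 2579, and its summit lay 45 bp upstream and 3 bp from the start site of RanBP3, a nuclear transport gene on the other strand. Its 5 partners in the ATPase ring all had a pooled summit below the threshold, Rpt3 at rank 5581, Rpt1 at 5953, Rpt2 at 6333, Rpt6 at 7561 and Rpt4 at 12165. Rpt3 ranked 3557 in replicate 1 but 6489 and 6456 in the other replicates. Rpt6 ranked 8955 and 6269 in replicates 1 and 3 and had no summit in replicate 2, and Rpt4 had none in replicate 3. Across the regulatory particle, 7 of 18 genes were bound and all 18 had a pooled summit, against 22.9% and 54.4% of all protein-coding genes.

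In the core particle, 3 of 14 genes were bound and 10 had a pooled summit, against 22.9% and 54.4% of all protein-coding genes. The stronger 2450 optimal peaks left 1 bound, against 13.1%, and the top 4900 of replicate 3 alone gave 5, against 22.5%. Prosbeta1 (FBgn0010590, peak chr2R:16014642-16015051 on dm6), the beta subunit with the caspase-like protease site, had pooled rank 2084 with ranks 1728, 2614 and 3424. Prosbeta2, which carries the trypsin-like site, had pooled rank 5033 with ranks 5733, 5024 and 5041. Prosbeta5, which carries the chymotrypsin-like site, had pooled rank 5525 with ranks 7455, 27016 and 4166. Prosbeta1 was thus inside the top 4900 of every replicate, Prosbeta2 just outside it in every replicate, and Prosbeta5 on either side. The Prosbeta2 summit was 272 bp upstream of its start site and 13 bp from that of mRpL39, a mitochondrial ribosomal protein gene. Of the beta subunits without a protease site, Prosbeta3 had pooled rank 13791, and Prosbeta4, Prosbeta6 and Prosbeta7 had no pooled summit. Prosbeta7 had a summit in replicate 2 alone, at rank 16455, and an optimal summit lay 1099 bp from Prosbeta6.

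Of the 7 alpha ring genes, Prosalpha3 and Prosalpha5 were bound. Prosalpha3 (FBgn0261394, peak chr2R:20994646-20995055 on dm6) had pooled rank 4107 and ranks 2940, 4883 and 4999. Prosalpha5 (FBgn0016697, peak chr2R:17412577-17412986 on dm6) had pooled rank 4194 and ranks 3729, 12378 and 4335. Both therefore fell outside the top 4900 of 1 replicate, which no other bound member did. Their percentiles were 85.8 ± 3.86 and 77.3 ± 16.1 (SD, n = 3). Prosalpha7 stood just below the threshold at pooled rank 5102, with ranks 3800 and 4160 but 18111 in replicate 3, and Prosalpha4 had pooled rank 5988. Prosalpha6 followed at 6709 and Prosalpha2 at 8402, the last with ranks 20705, 20713 and 3616. Prosalpha1 had no summit in any list. The core and regulatory shares in the optimal list, 21.4% (exact 95% interval 4.66% to 50.8%) and 38.9% (17.3% to 64.3%), have intervals that overlap. Both intervals include the share over all protein-coding genes, 22.9%.

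Among the ubiquitous genes, the replicates differed most at unbound genes. Of the 32 ubiquitous genes, 8 were among the top 4900 peaks in all 3 replicates, 3 in 2 replicates, 5 in 1 replicate and 16 in none. Over all protein-coding genes, 2305 of 13945 were among the top 4900 peaks in all 3 replicates. The SD of the percentile was over 20 at 9 ubiquitous genes, none of them bound, and was largest at Rpn8 (45.7), Rpt6 (43.3) and Prosbeta5 (41.2). A small SD at bound genes follows in part from the choice of the optimal list on the same replicates. Each value is the strongest summit in the window, which need not be the same peak in every replicate. The bound genes' replicate summits spread over a median of 38.5 bp (2 bp to 218 bp), against 49 bp at all bound protein-coding genes, and 6 of 10 were within 50 bp, against 50.8%. At the 15 ubiquitous genes below the threshold that had a summit in every replicate, the median spread was 141 bp (26 bp to 2299 bp), and 7 of them spread over more than 200 bp. Neither the SD count nor the spread below the threshold was computed over all protein-coding genes. Whether these values are particular to the subunit genes was therefore not tested.

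The testis-type paralogues had few summits of any kind. Prosbeta2R2 had pooled rank 26530, with ranks 11281 and 15634 in replicates 1 and 2 and no summit in replicate 3. The pooled summit was 311 bp upstream, in a coding exon and nearer to the start site of CG1116. Rpt6R had pooled rank 28901, 39 bp upstream, and a summit in replicate 3 alone at rank 20764. Rpt3R had none in the pooled list and 1 in replicate 3 at rank 26659. All 6 of these ranks lie beyond 10000, in lists that include background calls. The other 13 paralogues had no summit in any of the lists. No paralogue was in the top 4900 of any replicate, and none ranked above its ubiquitous relative: in 13 of 16 pairs the ubiquitous gene had the higher mean percentile, and in 3 (Prosbeta4R1 and Prosbeta4R2 with Prosbeta4, and Prosalpha1R with Prosalpha1) both were at 0.

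The pairs are not independent, because the 16 paralogues derive from 12 ubiquitous genes by their symbols. Of those 12, 10 had a pooled summit and 2, Prosalpha3 and Rpn13, were bound, against 54.4% and 22.9% of all protein-coding genes. Unbound ubiquitous genes lay a median of 6656 bp from the nearest optimal summit, against 27774 bp for the testis-type paralogues and 10141 bp for all unbound protein-coding genes. An optimal summit within 5000 bp was found for 9 of 22, 1 of 16 and 29.1%. The paralogues thus lay farther from strong sites over distances well beyond the promoter window.

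A sequence repeated elsewhere can lose reads in mapping, so 32-base words were counted within 500 bp of each start site. At Prosalpha1 and Prosalpha1R, 100% of these words recurred elsewhere on the arms, and at Rpn3 10.5% did. The median over ubiquitous genes and over testis-type paralogues was 0. Leaving out Prosalpha1 and Prosalpha1R, 10 of 31 ubiquitous genes (32.3%) and 0 of 15 testis-type paralogues were bound, and 90.3% and 13.3% had a pooled summit. The part of repeated sequence in the missing summits of Prosalpha1 and Prosalpha1R was not tested.

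The groups also differed in how close their neighbours stand. A head-to-head neighbour, meaning that the nearest other protein-coding start site lies upstream within 1000 bp on the other strand, was present at 21 of 32 ubiquitous genes (65.6%), at 3 of 16 testis-type paralogues (18.8%) and at 33.2% of all protein-coding genes. Among genes with such a neighbour, 8 of 21 ubiquitous genes were bound (38.1%), 0 of 3 testis-type paralogues and 38.0% of all protein-coding genes. Among genes without one, 2 of 11 (18.2%), 0 of 13 and 15.4% were bound. Within each arrangement the bound share of the ubiquitous genes was thus close to that of all protein-coding genes. This split was made after the ranks had been seen.

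Among the ubiquitous genes, pooled summits stood above the share over all genes in both arrangements. With a head-to-head neighbour, 19 of 21 ubiquitous genes had a pooled summit (90.5%), 1 of 3 testis-type paralogues and 74.1% of all protein-coding genes. Without one, 9 of 11 ubiquitous genes had a pooled summit (81.8%), 1 of 13 testis-type paralogues (7.69%) and 44.6% of all protein-coding genes. The nearest other start site was a median of 305 bp away for ubiquitous genes, 2470.5 bp for testis-type paralogues and 1375 bp for all protein-coding genes. How much of the difference between the groups goes with neighbouring genes beyond these counts was not tested.

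At the 10 bound genes, 8 of the strongest summits lay upstream of the start site (80%), against 84.2% over all bound genes, and 6 lay nearest to the gene's own start site (60%), against 74.0%. The median distance from the start site was 54.5 bp, against 112 bp over all bound genes. The annotation placed 5 of the summits in intergenic sequence, 3 in a 5′ UTR and 2 in an intron, which in head-to-head pairs can belong to the neighbour. The 4 strongest summits nearer to another gene were those of Rpn5, Rpn6, Rpt5 and Rpn2, and distance alone does not assign these to the subunit gene rather than to Hat1, ave, RanBP3 or Slbp. Rpn5 also had the optimal summit 6 bp from its own start site. Below the threshold, the strongest summits of Prosbeta2, Prosalpha4, Prosalpha6, Rpn8 and Prosbeta3 were likewise nearer to another gene. Those genes were mRpL39, kat80, Npc1a, Slik and Iru in the same sequence.

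**Figure D3:**
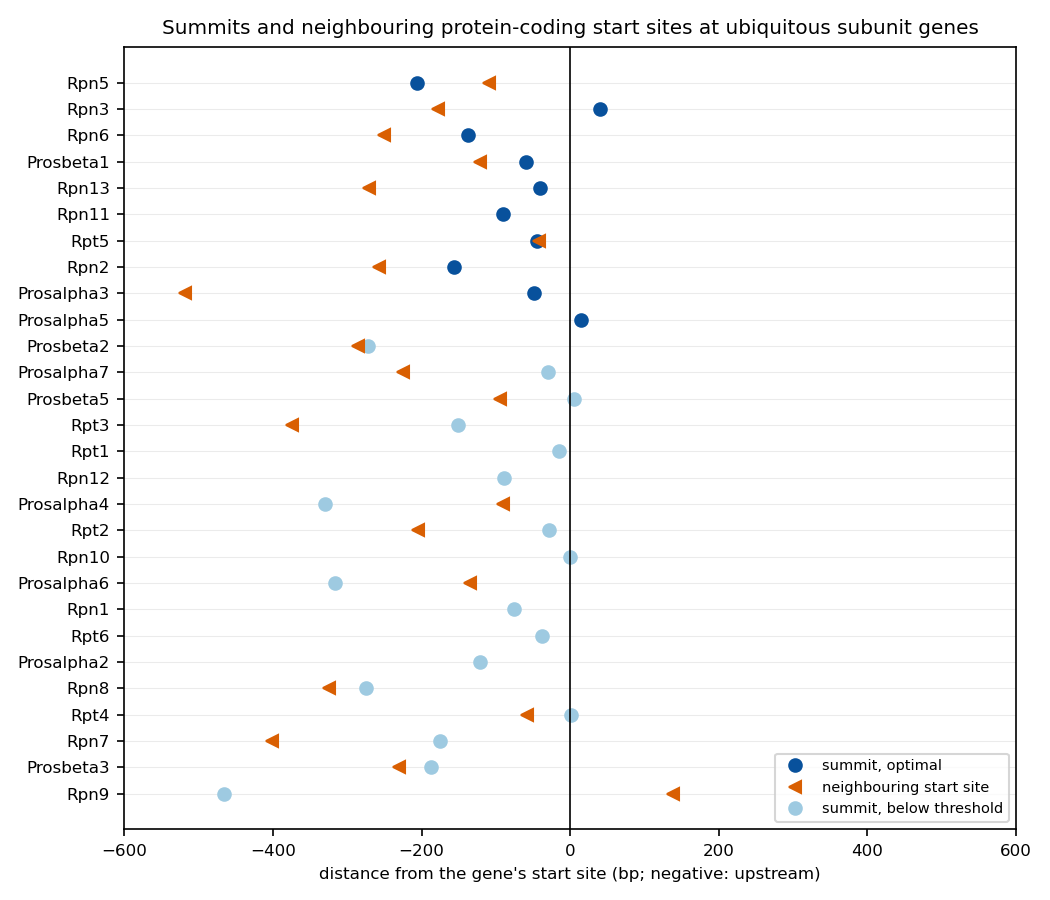
Distance (bp, negative upstream) of the strongest pooled summit and of the nearest other protein-coding start site from the start site of each of the 28 ubiquitous subunit genes with a pooled summit, the arrowhead pointing in the direction of the neighbour's transcription. Neighbours beyond the drawn range are left out. The bound genes at the top have their summits between 206 bp upstream and 40 bp downstream, and 5 of these summits lie between the gene and an upstream neighbour on the other strand.

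Motifs were searched on both strands of the dm6 reference as exact letters. Within 100 bp of the strongest optimal summit, GAGAG was found at 1 of the 10 bound ubiquitous genes, Rpn13, against 745 of 2328 optimal promoter summits. TATCGATA, a palindrome, was found at 5 of 10, namely Prosalpha3, Prosalpha5, Prosbeta1, Rpn3 and Rpt5, against 8.98%. The weaker optimal summit of Rpn13 also held it. The 7-letter GAGAGAG, which contains GAGAG, was found at none of the 10, against 11.8%. A match is a description of letters and not a measured site, and a missing match shows only that these letters are not in the window.

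Promoter windows from 250 bp before to 50 bp after the start site gave the same order. Each window was taken at the gene's outermost start site alone, while the binding classes used any of its start sites. Only 1 start site was annotated at 22 of 32 ubiquitous genes and at 10246 of 13945 protein-coding genes. At other genes the window can miss the promoter with the summit, as it did at Rpn6 and Rpn8. TATCGATA was found at 12 of 32 ubiquitous genes (37.5%), at none of the 16 testis-type paralogues and at 9.36% of all protein-coding genes. It was found at 6 of the 10 bound ubiquitous genes, 5 of the 18 with a pooled summit below the threshold and 1 of the 4 without one, against 15.3%, 12.1% and 4.50% of all protein-coding genes in those classes. GAGAG was found at 3 of 32 ubiquitous genes (9.38%), at 6 of 16 testis-type paralogues (37.5%) and at 29.7% of all protein-coding genes. GAGAGAG was found at none of the ubiquitous genes, at 2 testis-type paralogues, Prosbeta2R2 and Rpt4R, and at 5.87% of all protein-coding genes. Between the ubiquitous genes and the testis-type paralogues, the group with more GAGAG was thus the group without bound promoters. Over all protein-coding genes the direction was the other way. GAGAG was found at 32.98% of bound genes, 31.99% with a pooled summit below the threshold and 26.5% without one. For GAGAGAG the shares in those classes were 8.68%, 7.03% and 3.65%. Among the ubiquitous genes, GAGAG was found at 1 of 10, 2 of 18 and 0 of 4.

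GGTCACACT, known as Ohler motif 1 of fly core promoters, was found at 5 of 32 ubiquitous genes, at none of the testis-type paralogues and at 6.05% of all protein-coding genes. TGACNNNGC, the element bound by Cnc with its Maf partner, was found at 5 of 32, at 1 of 16 and at 8.63%. Rpn1, Rpn7, Prosalpha2 and Prosbeta3 held both, so these 2 counts share 4 genes. The opposite strand of GGTCACACT ends in TGACC, so the same stretch can match both motifs. Whether it did at these genes was not tested. Each motif was at 0 of the 10 bound ubiquitous genes and 5 of the 18 below the threshold. Over all protein-coding genes in those classes, the shares were 8.49% and 9.56% for GGTCACACT and 8.77% and 9.56% for TGACNNNGC, so 10 genes are too few to show an absence. CAGCTG, a palindromic E-box, was found at 1 of 32, 1 of 16 and 17.7%. TATAAA, the TATA box, was found at 13 of 32, 5 of 16 and 45.8%, and TCAGT, the core of the initiator, at 18 of 32, 8 of 16 and 51.5%.

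**Figure D4:**
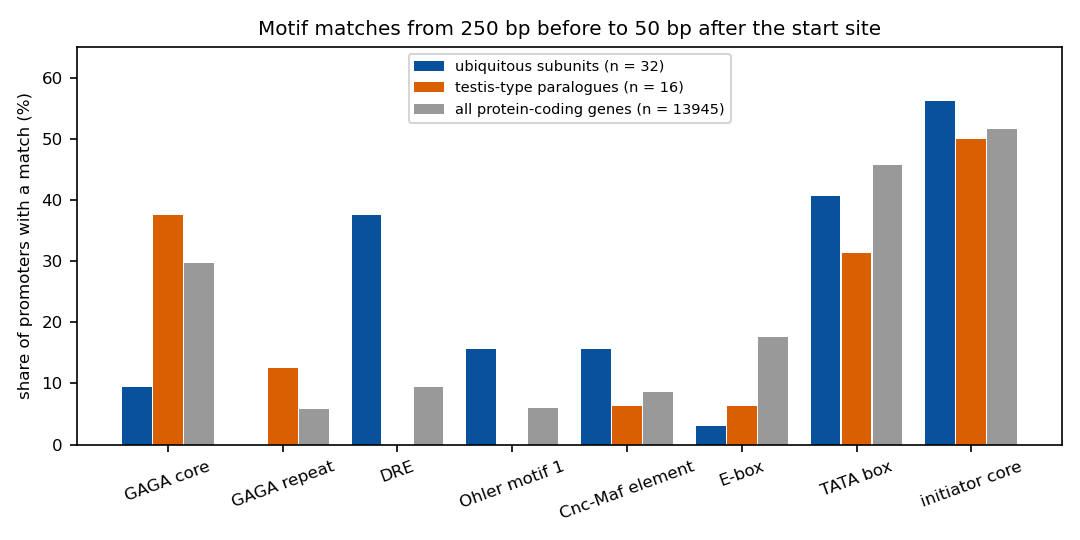
Share of promoter windows (%, from 250 bp before to 50 bp after the gene's outermost start site) with at least 1 exact match on either strand, for ubiquitous subunits, testis-type paralogues and all protein-coding genes. The DRE bar of the ubiquitous subunits stands at 37.5% against 9.36% of all protein-coding genes, and their GAGA core bar at 9.38% against 29.7%.

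Genes that act with the proteasome were taken from a list of 34 written by hand. Of these, 15 were bound (44.1%, against 22.9% of all protein-coding genes), 32 had a pooled summit (94.1%, against 54.4%) and 9 (26.5%, against 13.0%) had pooled ranks from 4901 to 10000. The bound count was 6 (17.6%, against 11.3%) with a promoter window of 100 bp and 9 (26.5%, against 13.1%) with the stronger 2450 optimal peaks. The ubiquitin sources RpS27A, a fusion of ubiquitin with a ribosomal protein, and Ubi-p63E, a polyubiquitin gene, had pooled ranks 1083 and 1421. The conjugating enzymes ben and eff had pooled ranks 1200 and 1536. The unbound Cul1 and Cul3, scaffolds of ubiquitin ligases, had pooled ranks 8244 and 15048, Nedd8, the modifier that activates cullins, had 12544, and Npl4, a cofactor of the p97 ATPase, had 8935. Rad23, which carries ubiquitinated proteins to the proteasome, and RpL40, the other ubiquitin fusion, had no pooled summit. The RpS27A start site coincides with that of Ip259, so its peak belongs to a shared promoter.

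Among the other complexes built from many subunits, the ubiquitous proteasome genes, with 31.25% bound, stood below the mitochondrial ribosomal protein genes at 46.6% (34 of 73, exact 95% interval 34.8% to 58.6%) and the cytosolic ribosomal protein genes at 75% (69 of 92, 64.9% to 83.4%). Both ribosomal sets were taken by symbol with no paralogues set aside, unlike the proteasome set. The cytosolic set includes RpS27A and RpL40, which are also among the partner genes. The interval of the proteasome genes overlaps that of the mitochondrial set and not that of the cytosolic set, and no test of the differences was made. With a promoter window of 100 bp, the bound shares were 25%, 13.7% and 67.4% in the same sequence of sets, against 11.3% of all protein-coding genes. The order of the proteasome and the mitochondrial set thus turned. Among the unbound genes of each set, pooled ranks from 4901 to 10000 were held by 13 of 22 ubiquitous proteasome genes (59.1%), 13 of 39 mitochondrial (33.3%) and 10 of 23 cytosolic ribosomal protein genes (43.5%), against 16.9% of all unbound protein-coding genes. The median percentile was 73.5 for the ubiquitous proteasome genes, 75.5 for the mitochondrial and 95.2 for the cytosolic ribosomal protein genes, and with a window of 100 bp it was 41.3, 14.9 and 90.2.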

How the data were processed

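The authors deposited, per the file headers and notes, a dm6 peak list for each of 3 biological replicates, a pooled list and an optimal list thresholded by IDR. Chromatin was sonicated to 200 to 800 bp, per the labels. The signal of each peak, its −log10 q-value and the summit offset are the authors' deposited values. Depth is unknown, and peak caller and aligner were not given in the sources used here. Not used were the −log10 q-value, the dm3 lists and any control IP.

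The gene annotation was Ensembl release 115 on dm6. Summits within 500 bp of a start site were assigned to every gene in reach, ranked by signal within a list of 30000, and turned into percentiles (0 without a summit). Values are counts, medians and mean ± SD over replicates, and no test was made. The members, lists and motifs were chosen with earlier results of these data known. The rank limit of 10000, the neighbour and head-to-head splits, the band shares among unbound genes and the repeat count were added after seeing the data. Of 34 partner symbols, 3 were matched through synonyms. All members could be named, with full values for the bound ones, for testis-type paralogues with a summit and for those whose percentiles varied most, and for up to 4 bound and 4 unbound partners. Rad23, RpL40 and the neighbouring genes were named after their values were seen. Exact intervals are Clopper-Pearson. Alternatives were other promoter and motif windows, the stronger 2450 peaks, the pooled list, 1 start site a gene, each replicate alone or left out, and a strict reading of testis-type symbols. Python 3.11.15, numpy 2.4.6, scipy 1.17.1 and matplotlib 3.10.9 were used, and the code was tested on simulated data.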

Additional observations from a re-analysis of the deposited data

How the results depend on the processing

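With 3 replicates of 1 group, precision is limited by the number of replicates and by unknown depth. No paired analysis was possible because there is 1 group. Each result was computed again under the alternatives, and the cause of each shift was not tested. In the pooled list, 28 ubiquitous genes, 2 testis-type paralogues, 32 partner genes, 10 core and 18 regulatory genes had a summit, a ubiquitous minus testis-type difference of 75 percentage points. With a promoter window of 100 bp, 6 partner genes were bound, the difference was 25 points, the median percentile of ubiquitous genes 41.3 and the median distance 42.5 bp. With the stronger 2450 optimal peaks, 9 partner genes and 1 core gene were bound and the difference was 21.9 points. The difference was 28.1 points with 1 start site a gene, 29.4 points with testis-type symbols read strictly, and 37.5, 34.4 and 37.5 points in the top peaks of replicates 1, 2 and 3 alone. Replicate 3 alone gave 5 core genes. GAGAG was found at 3 of 10 bound ubiquitous genes within 250 bp of the summit, against 52.6% of optimal promoter summits. Replicate summits gave median distances of 82 bp, 76 bp and 68.5 bp. Leaving out each replicate gave a median percentile of 73.4 to 76.4 for ubiquitous genes and 0 for testis-type paralogues. The testis-type share was 0 in every setting but the pooled list, so the difference could not turn negative there, and its sign is no check. A further 50 values stayed within their spread or within 1.5 times the count.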

Other observations

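Factors and helpers of the proteasome were spread over the ranks too. cnc, the fly relative of the mammalian factors Nrf1 and Nrf2, had pooled rank 2440, with ranks 2775, 3091 and 1937 in replicates 1, 2 and 3 and its strongest summit 298 bp downstream of a start site, in an intron. A second optimal summit lay 13 bp from a start site of cnc, which has 10 start sites. The partner of cnc, maf-S, had pooled rank 20343, from a summit 85 bp upstream. Its ranks of 11054, 6003 and 4556 in the replicates belong to summits at -151, 422 and 469 bp (negative upstream), so they are not all the same peak. Pomp, which assembles the core particle, had pooled rank 1610 and ranks 1604, 1621 and 2058, with no other start site within 1000 bp. Uch-L5, a deubiquitinase of the regulatory particle, had pooled rank 1675. PI31, a regulator of proteasome activity and transport, had 3603. Sem1, the smallest lid subunit, whose symbol falls outside the rule for members, had pooled rank 9705 with ranks 6920, 19964 and 11515. These genes were chosen from the partner list after their values were seen.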
